A study of Mus musculus with 6 samples.

Results

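The genes of glucose breakdown and of the low-oxygen response were examined in bulk RNA sequencing of 6 mouse bladder tumours. The set holds 32 genes chosen by name, and all 32 were found among the 22063 genes of the deposited table. They are 2 glucose transporters, 15 enzymes of the glycolytic chain, 2 enzymes that set the level of fructose-2,6-bisphosphate, 5 genes of pyruvate and lactate handling, the oxygen-regulated factor Hif1a with 2 prolyl hydroxylases, and 5 other genes induced in hypoxia. Aldoa has an additional row under a separate identifier with 1 to 4 counts per tumour, which failed the expression filter and was not used. All 6 tumours arose in female mice of an immunocompetent model of spontaneous bladder cancer, and every one of them was treated with an anti-PD-1 antibody, which blocks an inhibitory receptor of T cells. The labels call 3 tumours non-responsive and 3 responsive. No untreated tumour was analysed here, so each value describes a tumour after treatment. Strain, age, dose and the way response was judged were not given in the sources used here, and nothing in the labels says that the tumours of a group came from separate animals. The p-values therefore measure only the spread between these samples.

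Glycolysis breaks glucose down to pyruvate, which is either reduced to lactate by lactate dehydrogenase or carried into mitochondria and oxidised. When oxygen is low, the prolyl hydroxylases that mark HIF-1α for destruction lose activity, and the stabilised factor binds hypoxia response elements beside many genes of this pathway. HIF-1α is controlled mainly as a protein, so the level of Hif1a RNA is not a measure of the activity of the factor. Solid tumours, bladder cancers among them, often take up much glucose and hold poorly perfused, hypoxic areas.

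The core of a hypoxia response element is the pentamer ACGTG or GCGTG, and the stretches just upstream of 5 of these genes show how it is spread among members with different values here. Both pentamers were searched on both strands, and the letters CACGTG hold ACGTG on each strand and count as 2 matches. Each line gives the 150 bases before the transcription start listed first for the gene in the RefSeq table, 5′ to 3′ on the strand of the gene, with the matches in capitals. Positions are in GRCm38 (RefSeq GRCm38.p6), the build of the deposited data, and no annotated exon overlaps them. Ldha makes lactate, Pgk1 is an enzyme of the lower chain, Hif1a is the factor itself, and Ldhb and Pfkm are the members with the lowest p-values in the comparison.
Ldha, chr7:46845654-46845803, plus strand: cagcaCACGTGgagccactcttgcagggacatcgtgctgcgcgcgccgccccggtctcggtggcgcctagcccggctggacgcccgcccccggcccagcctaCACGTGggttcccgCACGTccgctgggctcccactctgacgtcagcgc
Pgk1, chrX:106186950-106187099, plus strand: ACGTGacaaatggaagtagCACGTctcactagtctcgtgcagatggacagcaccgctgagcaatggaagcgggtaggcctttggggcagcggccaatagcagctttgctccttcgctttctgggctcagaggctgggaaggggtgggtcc
Hif1a, chr12:73907717-73907866, plus strand: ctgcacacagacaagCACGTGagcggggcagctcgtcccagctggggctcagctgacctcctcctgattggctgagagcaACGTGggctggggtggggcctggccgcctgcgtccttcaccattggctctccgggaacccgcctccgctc
Ldhb, chr6:142507958-142508107, minus strand: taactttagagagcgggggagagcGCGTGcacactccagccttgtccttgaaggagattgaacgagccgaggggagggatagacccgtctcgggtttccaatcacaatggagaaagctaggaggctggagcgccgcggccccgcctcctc
Pfkm, chr15:98092439-98092588, plus strand: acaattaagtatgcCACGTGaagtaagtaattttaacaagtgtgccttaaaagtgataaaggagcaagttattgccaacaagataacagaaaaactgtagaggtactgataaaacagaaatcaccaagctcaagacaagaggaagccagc
The Ldha stretch holds 5 matches, those of Hif1a 3, Pgk1 2 and Pfkm 2, all of ACGTG, and the Ldhb stretch holds 1 match of GCGTG. Ldha and Pfkm have other listed starts: the other Ldha window holds 0 matches of ACGTG and 2 of GCGTG, and the other 3 Pfkm windows hold 1, 0 and 0 of ACGTG and 1, 1 and 0 of GCGTG. The Ldha and Hif1a stretches lie inside the annotated gene bodies of Ldha and Hif1a, and the Pfkm stretch lies inside the body of Senp1. RefSeq promoter windows, each of 250 bases before and 50 bases after a start, were matched for 30 of the 32 genes, and Slc2a3 and Ndrg1 have no entry. Of their 43 windows, 35 held at least 1 match of either pentamer (81.4%), against 43.8% of all 32851 windows. ACGTG was present in 53.5% of the windows of the 30 genes and in 19.6% of all windows, and GCGTG in 55.8% and 32.4%. The windows of the 30 genes were richer in G and C, with a median of 61.3% against 52.7% for all windows, and the part of base composition in the difference was not tested. A match is a description of the letters, not a binding site.

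Estimated counts summed to between 15046180 and 23917398 per tumour, and the smallest count of any of the 32 genes in any tumour was 25. The tumours differed in their cellular make-up by marker genes summed per tumour in CPM (read counts scaled to library size, with TMM factors). Urothelial and basal markers were present in all 6 tumours. Basal and squamous markers such as Krt5 and Krt14 reached 24803 CPM in non-responsive replicate 1 and lay between 4021 and 12289 CPM in the other 5 tumours. Adipocyte markers reached 5190 CPM in responsive replicate 1 against 189 to 480 CPM elsewhere, and erythroid markers 13156 CPM in the same tumour against 225 to 1964 CPM. Luminal urothelial markers reached 4274 CPM in responsive replicate 3. In bulk tissue, fewer cells of a type and less RNA per cell cannot be told apart.

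All 32 genes passed the expression filter, and none of them differed between the groups after adjustment over the 14505 genes tested (edgeR quasi-likelihood test, Benjamini-Hochberg, 5%). The same test called 0% of all genes, and its smallest adjusted p, 0.35, was shared by members and by the whole table. Before adjustment, 4 of the 32 genes had a p under 0.05, against 12.6% of all genes tested. Hif1a and Egln1 were higher in the non-responsive tumours, and Ldhb and Pfkm were lower. The same 4 genes were the members whose 3 non-responsive tumours did not overlap the 3 responsive tumours in CPM, a pattern seen in 17.6% of all genes tested. By direction, 2 of the 32 were higher without overlap, against 9.58% of all genes, and 2 were lower, against 8.07%. DESeq2, run as an alternative, called 2 of the 32 genes at an adjusted p under 0.05, Ldhb and Pfkm, both lower in non-responsive tumours, against 2.98% of all 14998 genes to which it gave an adjusted p. On data simulated from these libraries, with the spread that edgeR had estimated, DESeq2 made more correct calls and more false calls than edgeR. In that setting its calls carried less certainty than the threshold states, and the calls here may do so too. With limma-voom, run with a quality weight per tumour, 6 of the 32 had an unadjusted p under 0.05, against 3357 of the 14505 genes tested. They were Egln1, Ldhb and Pfkm again, with Eno2, Hk1 and Ndrg1 and without Hif1a.

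As a group the genes lay on neither side. The median log2 fold change (non-responsive minus responsive) was 0.04 over the 32 genes and 0.01 over all genes tested, and 18 of the 32 lay above 0, against 51% of all genes. For 17 of the 32 the difference was smaller than its own standard error. The standard errors ran from 0.22 for Hk2 through a median of 0.45 to 0.79 for Bnip3 on the log2 scale. The 15 glycolytic enzymes had a median of -0.07, with 7 above and 8 below 0.

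**Figure D1:**
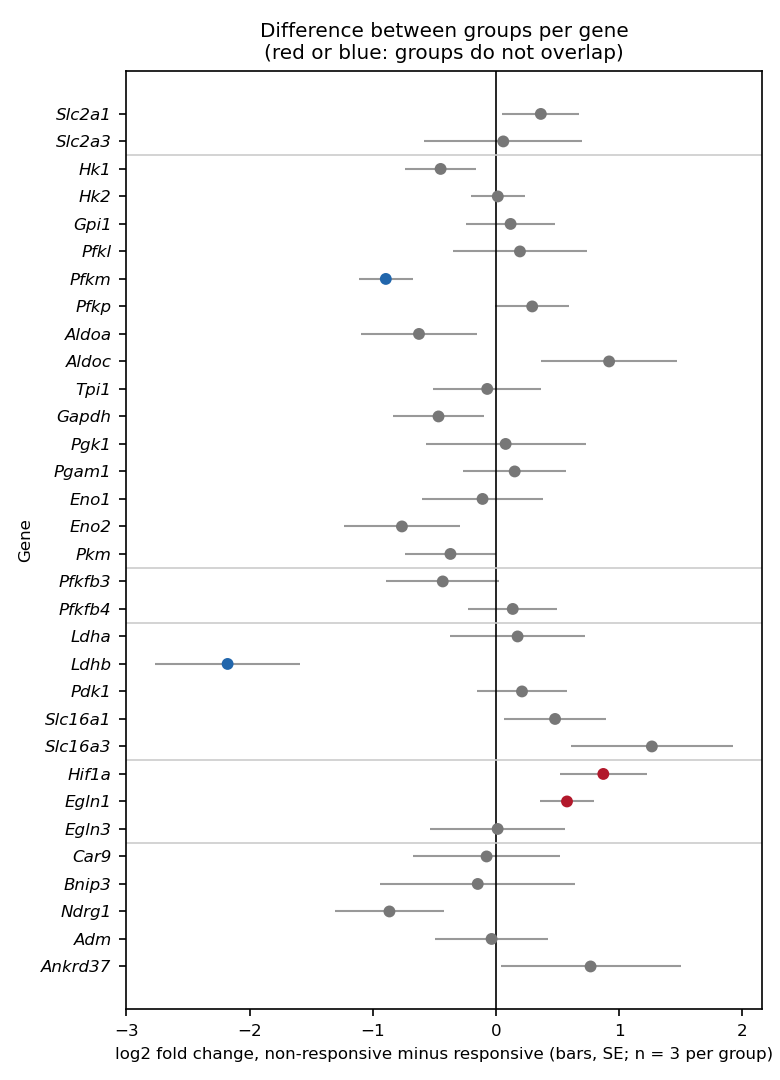
Log2 fold change of each of the 32 genes (x axis, non-responsive minus responsive; points, edgeR estimates; bars, standard errors), ordered by role. Coloured points mark the 4 genes whose groups do not overlap, Hif1a and Egln1 to the right of 0 and Ldhb and Pfkm to the left, while 17 of the 32 estimates lie closer to 0 than their own standard error.

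Of the glucose transporters, Slc2a1 encodes GLUT1, the widespread basal transporter, and Slc2a3 encodes GLUT3, a high-affinity transporter of neurons and white blood cells. Slc2a1 stood at 226, 105 and 133 CPM in the non-responsive tumours and at 140, 117 and 103 CPM in the responsive ones. The groups overlapped, and the highest value was that of non-responsive replicate 1. The means were 155 ± 63.1 and 120 ± 18.8 CPM (SD, n = 3 each), and the log2 fold change was 0.36 ± 0.31 (SE). Without non-responsive replicate 1 it was -0.015. Slc2a3 was at 10.5, 17.0 and 9.53 CPM in non-responsive and at 5.91, 24.8 and 4.98 CPM in responsive tumours. The responsive group held both the highest and the lowest values, and the log2 fold change was 0.06 ± 0.64 (SE). The tumour with the highest Slc2a3, responsive replicate 2, had 595 CPM of summed neutrophil markers against 317 and 85.1 CPM in the other responsive tumours and 292 to 812 CPM in the non-responsive ones, and 7 of 7 tested neutrophil markers had log2 fold changes above 0. Of the 7, 4 were highest in non-responsive replicate 1, 1 in non-responsive replicate 2 and 2, Csf3r and Cxcr2, in responsive replicate 2. S100a8 and S100a9 gave 190 and 417 CPM of the sum in non-responsive replicate 1. The part of neutrophils in the level of Slc2a3 was not tested.

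Hexokinases trap glucose in the cell as glucose-6-phosphate, Hk1 as the general form and Hk2 as a form induced by insulin and by hypoxia. Hk1 was nearly level in the non-responsive tumours at 115, 111 and 114 CPM and ran to 92.2, 185 and 188 CPM in the responsive ones. Its values were therefore spread only in the responsive group, where replicate 1 was the lowest of all 6 tumours, and the log2 fold change was -0.45 ± 0.29 (SE). Without responsive replicate 1 the log2 fold change of Hk1 was -0.72. Hk2 was the steadiest member, at 89.7, 58.0 and 75.7 CPM against 83.9, 70.4 and 66.9 CPM, a range of 1.55-fold over the 6 tumours. Its group means, 74.4 ± 15.9 and 73.7 ± 8.98 CPM (SD, n = 3 each), gave a log2 fold change of 0.01 ± 0.22 (SE).

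Phosphofructokinase commits sugar to glycolysis and is built from a liver form (Pfkl), a platelet form (Pfkp) and a muscle form (Pfkm). Pfkm (chr15:98092589-98132451) was the only enzyme of the chain whose groups were apart. It was at 12.7, 14.3 and 12.8 CPM in the non-responsive tumours and at 23.1, 21.3 and 29.8 CPM in the responsive ones. Every responsive tumour lay above every non-responsive tumour, and the means were 13.3 ± 0.913 and 24.7 ± 4.47 CPM (SD, n = 3 each). The log2 fold change was -0.89 ± 0.22 (SE) with an unadjusted p of 0.00469 and an edgeR adjusted p of 0.35, while DESeq2 gave an adjusted p of 0.0285. The DESeq2 call for Pfkm held in 1 of the 6 fits that left out 1 tumour, that without non-responsive replicate 1, and its adjusted p in the 6 fits ran from 0.0292 to 0.237. The edgeR unadjusted p for Pfkm was between 0.00972 and 0.0234 in the 6 fits.

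The sum of skeletal muscle markers was, like Pfkm, higher in every responsive tumour, and that of smooth muscle markers was not. Summed skeletal muscle markers were at 26.6, 24.1 and 13.6 CPM in non-responsive and at 71.1, 37.4 and 80.7 CPM in responsive tumours, with 8 of 8 tested markers below 0 in log2 fold change. In responsive replicate 3, the tumour with the highest Pfkm, Ckm and Acta1 gave 34.8 and 38.4 of the 80.7 CPM, and Myl1 was at 0.12 CPM. The smooth muscle sum was lowest in responsive replicate 1. Smooth muscle markers, at 1718 to 4152 CPM against 1350 to 7105 CPM, overlapped between the groups, and their part and that of skeletal muscle in the Pfkm values were not tested. Of the 39863 bases of Pfkm, 1156 overlap Senp1 on the opposite strand, whose own log2 fold change was 0.25 ± 0.23 (SE). The liver and platelet forms overlapped between the groups. The log2 fold change was 0.19 ± 0.54 (SE) for Pfkl and 0.29 ± 0.30 (SE) for Pfkp, which lay at 63.2 to 211 and 67.8 to 143 CPM.

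**Figure D2:**
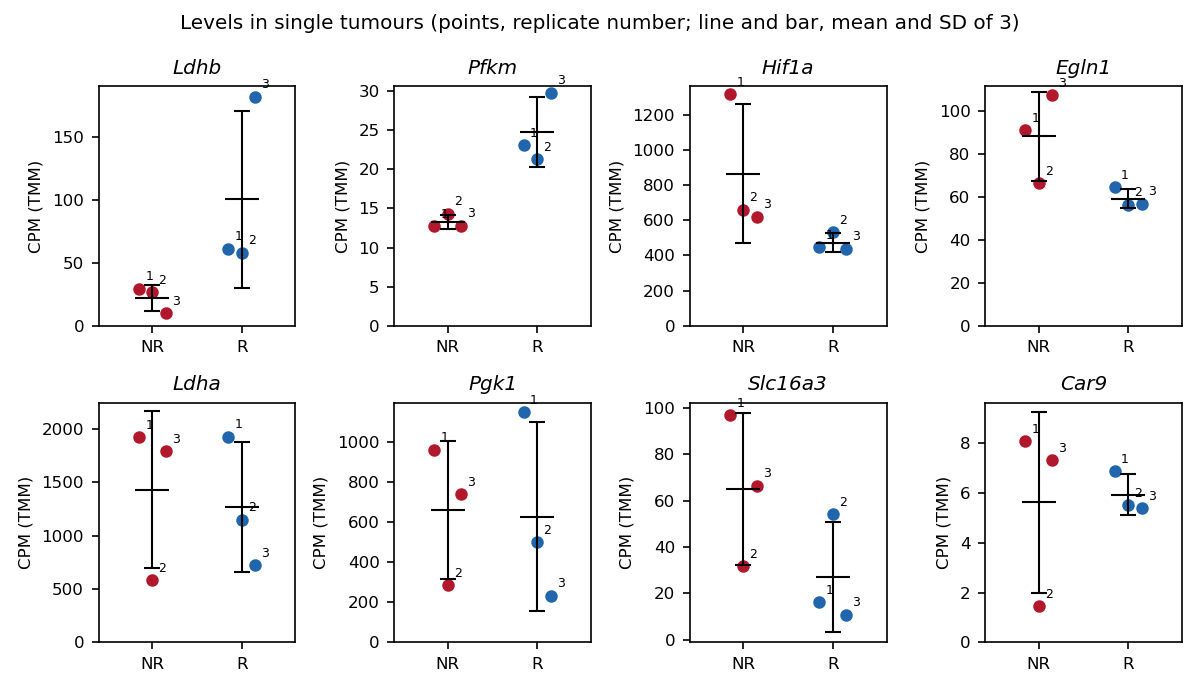
Levels of 8 genes in the single tumours (y axis, CPM after TMM scaling, each panel with its own range from 0; x axis, non-responsive and responsive groups; points are tumours labelled with the replicate number; line and bar, mean and SD of 3). Ldhb and Pfkm sit lower and Hif1a and Egln1 higher in every non-responsive tumour, while Ldha, Pgk1, Slc16a3 and Car9 overlap.

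In the lower chain, Gapdh was the most abundant member per length in every tumour, at 995 to 2134 FPKM. FPKM is the fragment count scaled to gene length and sequencing depth. Gapdh, which oxidises glyceraldehyde-3-phosphate and is a common reference gene, was at 2172, 1156 and 2027 CPM in non-responsive and at 3138, 2377 and 1889 CPM in responsive tumours. Its groups overlapped, with means of 1785 ± 550 and 2468 ± 629 CPM (SD, n = 3 each) and a log2 fold change of -0.47 ± 0.37 (SE). Pgk1, which makes the first ATP of the pathway, was at 963, 287 and 742 CPM against 1150, 503 and 235 CPM, nearly the same span in each group, and its log2 fold change was 0.08 ± 0.65 (SE). Pkm, the pyruvate kinase of most tissues and tumours, was at 1877, 823 and 1404 CPM against 2064, 1665 and 1575 CPM. Non-responsive replicate 2 was its lowest tumour, and the log2 fold change was -0.37 ± 0.37 (SE).

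Aldolase splits fructose-1,6-bisphosphate, and the set holds its muscle form Aldoa and its brain form Aldoc. Aldoc was at 21.9, 5.80 and 8.28 CPM in non-responsive and at 7.67, 7.42 and 3.91 CPM in responsive tumours. Its high value came from non-responsive replicate 1 alone. The log2 fold change of Aldoc was 0.92 ± 0.55 (SE, unadjusted p = 0.14, edgeR adjusted p = 0.483), and 0.15 without that tumour. Aldoa ran from 441 to 1273 CPM in non-responsive and from 851 to 1721 CPM in responsive tumours, with a log2 fold change of -0.63 ± 0.47 (SE). Without non-responsive replicate 1 the log2 fold change of Aldoa was -1.16.

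The remaining enzymes of the chain, Gpi1, Tpi1, Pgam1, Eno1 and the neuronal enolase Eno2, overlapped between the groups and had log2 fold changes from -0.76 (Eno2, at 1.80 to 5.07 CPM) to 0.15 (Pgam1). Pfkfb3 and Pfkfb4, which make and remove fructose-2,6-bisphosphate, the main activator of phosphofructokinase, are both known targets of HIF-1α. Pfkfb3 was at 47.9, 59.0 and 49.5 CPM in non-responsive and at 120, 61.0 and 29.9 CPM in responsive tumours, so its spread lay in the responsive group. Its log2 fold change was -0.43 ± 0.46 (SE), and 0.20 without responsive replicate 1. Pfkfb4 was at 15.3, 30.3 and 22.4 CPM against 21.9, 27.2 and 13.0 CPM, with overlapping groups and a log2 fold change of 0.14 ± 0.36 (SE).

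Among the genes of pyruvate and lactate, Ldha encodes the subunit that favours lactate production and Ldhb the subunit that favours lactate use. Ldhb (chr6:142490249-142507957) was at 29.5, 27.1 and 10.1 CPM in the non-responsive tumours and at 61.4, 58.3 and 182 CPM in the responsive ones. Every responsive tumour lay above every non-responsive tumour, and responsive replicate 3 stood far above the other 5. The means were 22.3 ± 10.6 and 101 ± 70.7 CPM (SD, n = 3 each), and Ldhb had the widest range of the 32 genes, 18.0-fold between its lowest and highest tumour.

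The log2 fold change of Ldhb was -2.18 ± 0.59 (SE) with an unadjusted p of 0.0074 and an edgeR adjusted p of 0.35, and DESeq2 gave an adjusted p of 0.0125. Without responsive replicate 3 the log2 fold change was -1.44. The DESeq2 call held in 4 of the 6 fits that left out 1 tumour and was lost without responsive replicate 3 and without non-responsive replicate 3, with adjusted p from 0.00449 to 0.157. The edgeR unadjusted p for Ldhb was between 0.0059 and 0.0197 in the 6 fits.

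The sum of luminal urothelial markers moved with Ldhb in some tumours and not in others. Their sum was 1331, 597 and 313 CPM in non-responsive and 891, 2459 and 4274 CPM in responsive tumours, and 9 of the 10 markers, uroplakins among them, had log2 fold changes below 0 with a median of -2.16. The marker above 0 was Krt20 (1.54), at 548 CPM in non-responsive replicate 1. Responsive replicate 3 was the highest and non-responsive replicate 3 the lowest tumour for both the marker sum and Ldhb. Non-responsive replicate 1 had a larger marker sum than responsive replicate 1 but less Ldhb (29.5 against 61.4 CPM). Krt20 gave 548 CPM of the first sum and 37.7 CPM of the second. The mean of centred log2 CPM over the 10 markers was -0.65, -0.78 and -1.67 in non-responsive and -0.14, 1.14 and 2.11 in responsive tumours. DESeq2 called 5 of the 10 markers lower in non-responsive tumours, against 1.53% of all genes. The part of luminal cells in the Ldhb values was not tested.

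Ldha was at 1921, 585 and 1790 CPM in non-responsive and at 1927, 1152 and 726 CPM in responsive tumours. The groups overlapped almost fully, and the log2 fold change was 0.17 ± 0.55 (SE). Per length, Ldha was at 419 to 1231 FPKM and Ldhb at 8.89 to 146 FPKM, so Ldha was above Ldhb in every tumour.

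Slc16a1 and Slc16a3 encode the lactate carriers MCT1 and MCT4, of which MCT4 is the exporter induced in hypoxia. Slc16a1 was at 131, 41.3 and 121 CPM in non-responsive and at 70.2, 80.4 and 60.3 CPM in responsive tumours. Non-responsive replicate 2 was the lowest of all, the other 2 non-responsive tumours were the highest, and the log2 fold change was 0.48 ± 0.41 (SE). Without non-responsive replicate 2 the log2 fold change of Slc16a1 was 0.86. Slc16a3 was at 96.8, 31.7 and 66.4 CPM in non-responsive and at 16.3, 54.0 and 10.9 CPM in responsive tumours.

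Slc16a3 had the largest positive log2 fold change of the 32 genes, 1.26 ± 0.66 (SE, unadjusted p = 0.0959, edgeR adjusted p = 0.442), and its groups overlapped because responsive replicate 2 exceeded non-responsive replicate 2. Without responsive replicate 2 the log2 fold change was 2.25, and DESeq2 called the gene in that fit with an adjusted p of 0.0104. Summed neutrophil markers were at 812, 470 and 292 CPM in non-responsive and at 317, 595 and 85.1 CPM in responsive tumours. Their part in the level of Slc16a3 was not tested. Pdk1, the kinase that restrains pyruvate oxidation in hypoxia, had a log2 fold change of 0.21 ± 0.36 (SE) with overlapping groups.

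Hif1a encodes the oxygen-regulated subunit, and Egln1 and Egln3 encode the prolyl hydroxylases PHD2 and PHD3 that target it. Hif1a (chr12:73901375-73947530) was at 1317, 659 and 619 CPM in the non-responsive tumours and at 447, 534 and 439 CPM in the responsive ones. No responsive tumour reached a non-responsive one, and non-responsive replicate 1 held by far the highest level. The means were 865 ± 392 and 473 ± 52.5 CPM (SD, n = 3 each), and the log2 fold change was 0.87 ± 0.35 (SE, unadjusted p = 0.0427, edgeR adjusted p = 0.388). Without non-responsive replicate 1 the log2 fold change of Hif1a was 0.43, and its unadjusted p stayed under 0.05 in 2 of the 6 fits that left out 1 tumour. The sum of basal and squamous markers was also highest in non-responsive replicate 1, and its part in the level of Hif1a was not tested.

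Egln1 (chr8:124908587-124949324) was at 91.1, 66.5 and 107 CPM in non-responsive and at 64.6, 56.4 and 56.9 CPM in responsive tumours. The groups did not overlap, although non-responsive replicate 2 and responsive replicate 1 lay close together. The means were 88.4 ± 20.7 and 59.3 ± 4.57 CPM (SD, n = 3 each), and the log2 fold change was 0.58 ± 0.22 (SE, unadjusted p = 0.0348, edgeR adjusted p = 0.373). Its unadjusted p also stayed under 0.05 in 2 of the 6 fits that left out 1 tumour. Egln3, which is strongly induced by HIF in many cells, was at 160, 36.1 and 54.3 CPM against 111, 76.4 and 61.4 CPM. The non-responsive group held both extremes of Egln3, and its log2 fold change was 0.01 ± 0.55 (SE).

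All 5 other hypoxia-induced genes overlapped between the groups. Car9 encodes carbonic anhydrase IX, a cell-surface enzyme used as a tissue marker of hypoxia. It was at 8.08, 1.46 and 7.31 CPM in non-responsive and at 6.86, 5.52 and 5.40 CPM in responsive tumours. Non-responsive replicate 2 was the lowest, the other 2 non-responsive tumours were the highest, and the log2 fold change was -0.08 ± 0.60 (SE). Ndrg1, a stress-response gene, leaned to the responsive side at 176 ± 79.5 against 321 ± 134 CPM (SD, n = 3 each), with a log2 fold change of -0.87 ± 0.44 (SE, unadjusted p = 0.0894, edgeR adjusted p = 0.435) and overlapping groups. Bnip3, a mitophagy receptor, Adm, the peptide adrenomedullin, and Ankrd37 had log2 fold changes of -0.15 ± 0.79, -0.04 ± 0.46 and 0.77 ± 0.73 (SE), and all overlapped.

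For most of these genes the highest and the lowest tumours were the same few, drawn from both groups. The highest tumour was non-responsive replicate 1 for 14 genes and responsive replicate 1 for 10, so 24 of the 32 had their highest level in one of these tumours. The lowest was non-responsive replicate 2 for 14 genes and responsive replicate 3 for 13, so 27 of the 32 had their lowest level in one of those. In the pathway lists described below, 30 of 51 glucose genes and 23 of 42 hypoxia genes were highest in replicate 1 of either group. For the same lists, 22 and 24 genes were lowest in non-responsive replicate 2 or responsive replicate 3. The share over all genes was not counted, so the counts cannot be called particular to the 32 genes. The mean of centred log2 CPM over the 32 genes was 0.46, -0.56 and 0.04 in the non-responsive tumours and 0.35, 0.10 and -0.38 in the responsive ones. Each group therefore held a high and a low tumour. For the 15 glycolytic enzymes alone the values were 0.42, -0.59 and -0.09 against 0.43, 0.07 and -0.25, and for the 5 other hypoxia-induced genes 0.60, -1.20 and 0.44 against 0.79, 0.02 and -0.64.

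The sign of the medians depended on single tumours. The median log2 fold change of the 32 genes was -0.24 without non-responsive replicate 1 and 0.35 without non-responsive replicate 2. For the 15 glycolytic enzymes it was -0.46 and 0.22 in these fits. The summed FPKM of the 32 genes made up 1.10, 0.68 and 1.17% of all FPKM in the non-responsive tumours and 1.29, 0.919 and 0.782% in the responsive ones, which overlap. Over the 6 tumours the largest over the smallest CPM of a gene had a median of 3.15 among the 32 genes.

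**Figure D3:**
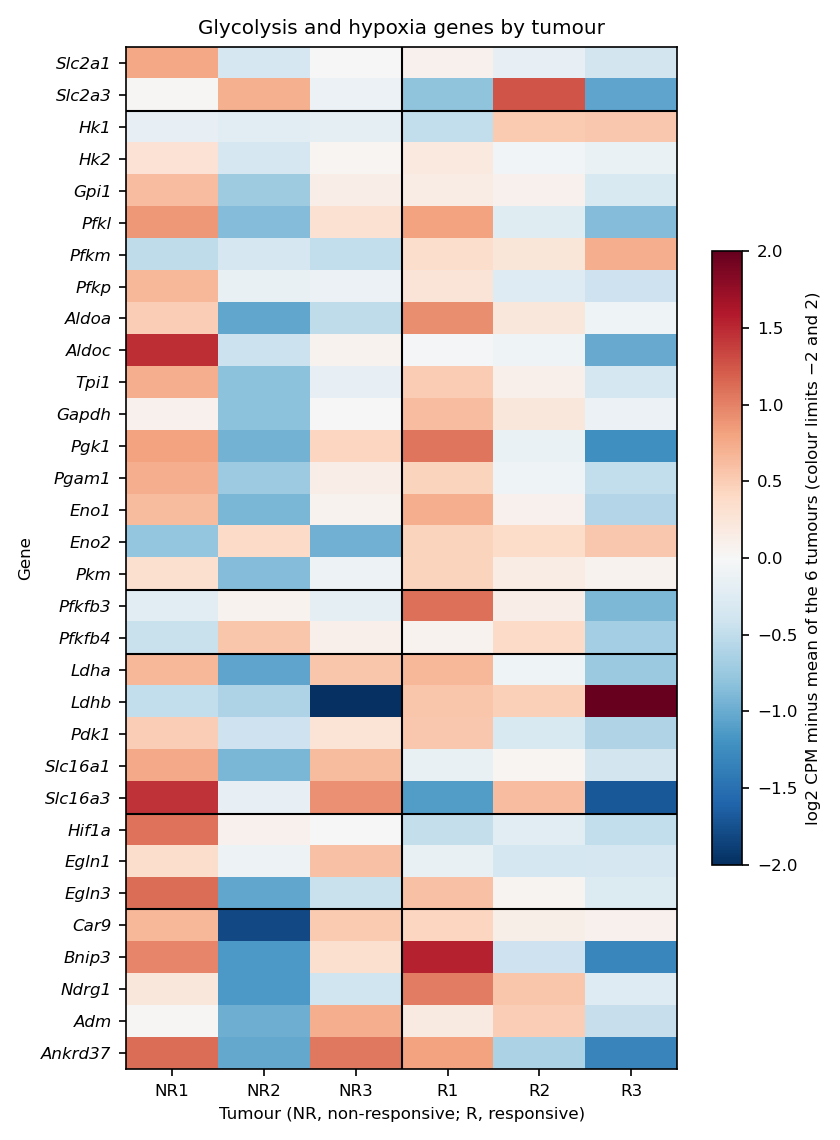
Levels of the 32 genes (rows, by role) in the 6 tumours (columns), as log2 CPM minus the mean of the gene over the 6 tumours (colour scale). Most rows are high in replicate 1 of both groups and low in non-responsive replicate 2 and responsive replicate 3, while Ldhb, Pfkm, Hif1a and Egln1 divide by group.

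The balance between isoenzymes was compared within each tumour as the log2 ratio of FPKM, to which 0.1 was added, for 10 gene pairs of the same step. With 3 tumours against 3 the two-sided exact permutation test cannot give a p below 0.1, and no pair passed after adjustment over the 10 pairs. Aldoa over Aldoc was the pair whose groups did not overlap, and it was the only one of the 10. Aldoa exceeded Aldoc 76.2-, 113- and 107-fold in the non-responsive tumours and 297-, 191- and 269-fold in the responsive ones. The ratio was 2.55-fold lower in the non-responsive tumours, with log2 means of 6.61 ± 0.31 and 7.95 ± 0.33 (SD, n = 3 each) and an exact permutation p of 0.1 (0.5 adjusted). Both aldolase genes overlapped between the groups when taken singly.

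Ldha over Ldhb stood at 50.4, 16.7 and 137 in the non-responsive tumours and at 25.2, 15.6 and 3.18 in the responsive ones. Ldhb thus made up 1.95, 5.66 and 0.725% of the 2 genes' FPKM in non-responsive and 3.81, 6.02 and 23.9% in responsive tumours. The groups overlapped, the mean ratio was 4.51-fold higher in the non-responsive tumours, and the exact permutation p was 0.2 (0.5 adjusted). Without responsive replicate 3 the difference in log2 ratio was 1.29, against 2.17 with all 6 tumours. The ratio of the exporter Slc16a3 to Slc16a1 was 1.77, 2.03 and 1.40 in non-responsive and 0.470, 1.59 and 0.431 in responsive tumours. Responsive replicate 2 lay within the range of the other group, and the log2 ratio was higher by 1.32 in non-responsive tumours with an exact permutation p of 0.2 (0.5 adjusted).

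Pfkm over Pfkl was lower by 1.31 on the log2 scale in non-responsive tumours, with overlapping groups and an exact permutation p of 0.2 (0.5 adjusted). The other 6 pairs had differences in log2 ratio from -0.79 (Egln3 over Egln1) to 0.28 (Hk2 over Hk1), with exact permutation p of 0.4 or above. Hk2 was below Hk1 on average in both groups, at mean log2 ratios of -1.17 and -1.45, and Slc2a1 was far above Slc2a3 in both, at 3.82 and 3.83.

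**Figure D4:**
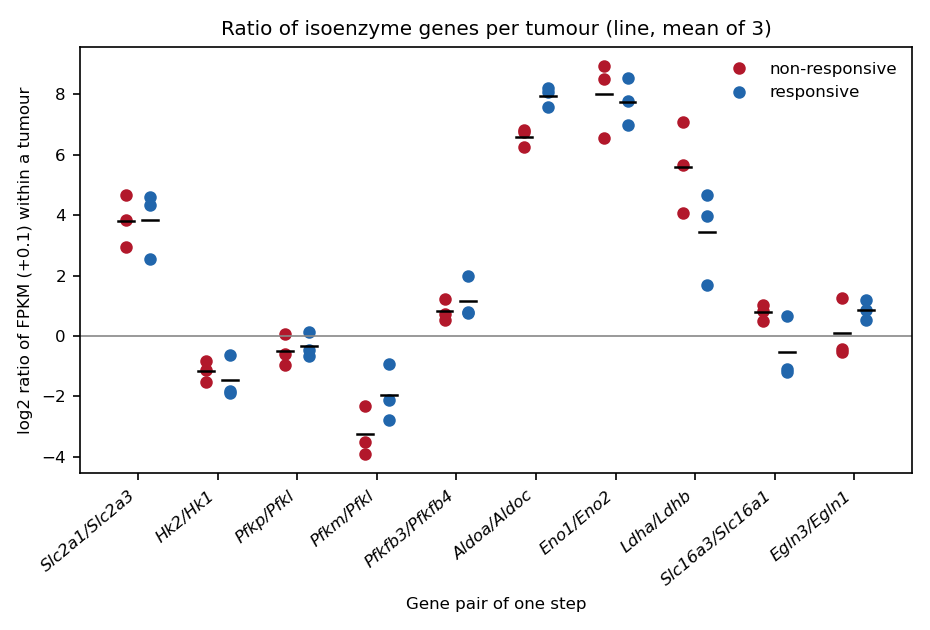
Log2 ratio of FPKM (y axis, 0.1 added to each value) within a tumour for 10 gene pairs of one step (x axis); points are tumours coloured by group and lines the mean of 3. Aldoa over Aldoc is the pair whose groups do not overlap, and for Ldha over Ldhb responsive replicate 3 lies far below the other tumours at a ratio of 3.18.

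Beyond the 32 genes, 2 lists of the surrounding pathways were counted, with earlier results of these data known. The list of other glycolysis and glucose metabolism genes had 61 genes, of which 51 were tested. Of these, 7 had log2 fold changes above 0 and 44 below, with a median of -0.43 against 0.01 for all genes. In fits that left out 1 tumour the median ran from -0.62 to -0.39, and it was -0.39 without responsive replicate 1, the tumour rich in adipocyte markers. At an unadjusted edgeR p under 0.05, 12 were lower in non-responsive tumours, against 5.79% of all genes, and 1 was higher, against 6.79%. Of the tumours left out in turn, non-responsive replicate 3 brought the 12 to 6 and responsive replicate 1 brought it to 8. DESeq2 called 3 of the 51 lower, against 1.53% of all genes, and none higher, against 1.45%. In the 6 DESeq2 fits that left out 1 tumour, the call held in all 6 for Pcx, in 3 for Pdk4 (lost without non-responsive replicate 2, responsive replicate 1 or responsive replicate 3) and in 2 for Pdk2 (without non-responsive replicate 1 or responsive replicate 2).

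Of the glucose genes of lowest p, Pdk2, a kinase that restrains the pyruvate dehydrogenase complex, was at 16.5, 13.4 and 18.0 CPM in non-responsive and at 44.0, 25.0 and 31.9 CPM in responsive tumours. Its groups did not overlap, and the log2 fold change was -1.08 ± 0.27 (SE, unadjusted p = 0.00482, edgeR adjusted p = 0.35, DESeq2 adjusted p = 0.0406). Pdk4, a kinase of the same family induced on fasting, was at 3.58, 5.27 and 9.02 against 30.5, 13.8 and 16.6 CPM, with a log2 fold change of -1.76 ± 0.46 (SE, DESeq2 adjusted p = 0.0208).

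Pcx, pyruvate carboxylase, was at 26.4, 38.1 and 15.7 CPM against 634, 111 and 80.6 CPM, also without overlap. Its log2 fold change was -3.36 ± 0.86 (SE, DESeq2 adjusted p = 0.0011) and -1.84 without responsive replicate 1. Pck1, the cytosolic PEP carboxykinase, was at 1.85, 3.05 and 4.16 against 151, 19.7 and 2.64 CPM, with overlap and a log2 fold change of -4.24 ± 1.33 (SE, unadjusted p = 0.0148, edgeR adjusted p = 0.363), which was -1.88 without responsive replicate 1. Both genes are abundant in fat, and adipocyte markers reached 5190 CPM in that tumour; the part of adipocytes was not tested. The gene of the list that was higher was Adpgk, an ADP-dependent glucokinase, with a log2 fold change of 0.65 ± 0.25 (SE, unadjusted p = 0.037, edgeR adjusted p = 0.379).

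The list of other HIF pathway and hypoxia-induced genes had 43 genes, of which 42 were tested. Here 27 lay above 0 and 15 below, with a median of 0.19, which was 0.06 without non-responsive replicate 1. At an unadjusted edgeR p under 0.05, 10 were higher in non-responsive tumours and 1 was lower, against the same 6.79% and 5.79% of all genes. Leaving out responsive replicate 2, or responsive replicate 3, brought the 10 to 5 each time. DESeq2 called 4 of the 42 higher, against 1.45% of all genes, and none lower. In the 6 DESeq2 fits that left out 1 tumour, the call held in 4 for Lox (lost without non-responsive replicate 3 or responsive replicate 2) and in 2 for Ero1a (without non-responsive replicate 1 or 2). It held in 1 for Nos2 (without non-responsive replicate 1) and in 1 for Car12 (without non-responsive replicate 2).

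Some marker lists leaned the same way as this list and others the other way. All 7 smooth muscle, 8 tested skeletal muscle and 6 adipocyte markers lay below 0 in log2 fold change. Of the 42 tested genes of the hypoxia list, 17, 4 and 9 were highest in non-responsive replicates 1, 2 and 3. In responsive replicates 1, 2 and 3, 6, 0 and 6 of them were highest. Endothelial markers summed to 283, 1005 and 810 CPM in non-responsive and to 375, 310 and 240 CPM in responsive tumours, with 7 of 7 above 0 in log2 fold change. Proliferation genes summed to 737, 628 and 811 against 537, 473 and 295 CPM without overlap, with 8 of 8 above 0, against 51% of all genes. DESeq2 called 2 of these 8 higher, against 1.45% of all genes. T cell markers were at 30.7, 143 and 28.0 against 21.4, 31.5 and 24.1 CPM, with 8 of 8 above 0. All 8 macrophage markers also lay above 0, and their sums overlapped between the groups. The part of these cells in the hypoxia list was not tested.

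Lox, the lysyl oxidase that cross-links collagen, was at 168, 157 and 217 CPM in non-responsive and at 86.8, 56.9 and 27.6 CPM in responsive tumours. The groups did not overlap, and the log2 fold change was 1.66 ± 0.41 (SE, unadjusted p = 0.00455, edgeR adjusted p = 0.35, DESeq2 adjusted p = 0.0156). Ero1a, an oxidase that forms disulfide bonds in the endoplasmic reticulum, was at 125, 107 and 189 against 71.3, 69.7 and 60.2 CPM, with a log2 fold change of 1.07 ± 0.25 (SE, DESeq2 adjusted p = 0.0297). Lox is commonly expressed by fibroblasts, whose markers summed to 5641 to 7223 CPM in non-responsive and 4564 to 5794 CPM in responsive tumours. Of the 9 markers, 7 lay above 0 in log2 fold change. Col1a1, Col1a2, Col3a1 and Postn, 4 of the 9, were higher without overlap, against 9.58% of all genes. DESeq2 called 2 of the 9 higher, Col1a1 (1.06 ± 0.26, SE) and Col1a2 (1.02 ± 0.26, SE), against 1.45% of all genes. Dcn (-1.08 ± 0.40, SE, groups without overlap) and Lum (-0.36 ± 0.43, SE) lay below 0. The part of fibroblasts in the level of Lox was not tested.

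Nos2, the inducible nitric oxide synthase, was at 4.31, 12.3 and 12.3 CPM against 2.57, 2.54 and 3.62 CPM, again without overlap, with a log2 fold change of 1.72 ± 0.48 (SE, DESeq2 adjusted p = 0.0294). Car12, a carbonic anhydrase related to Car9, was at 139, 35.5 and 103 against 27.9, 30.1 and 32.5 CPM. Its log2 fold change was 1.61 ± 0.46 (SE, DESeq2 adjusted p = 0.0372), although Car9 itself had one of -0.08. The gene of the list that was lower was Vldlr, a lipoprotein receptor, with a log2 fold change of -0.84 ± 0.35 (SE, unadjusted p = 0.0478, edgeR adjusted p = 0.392).

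**Figure D5:**
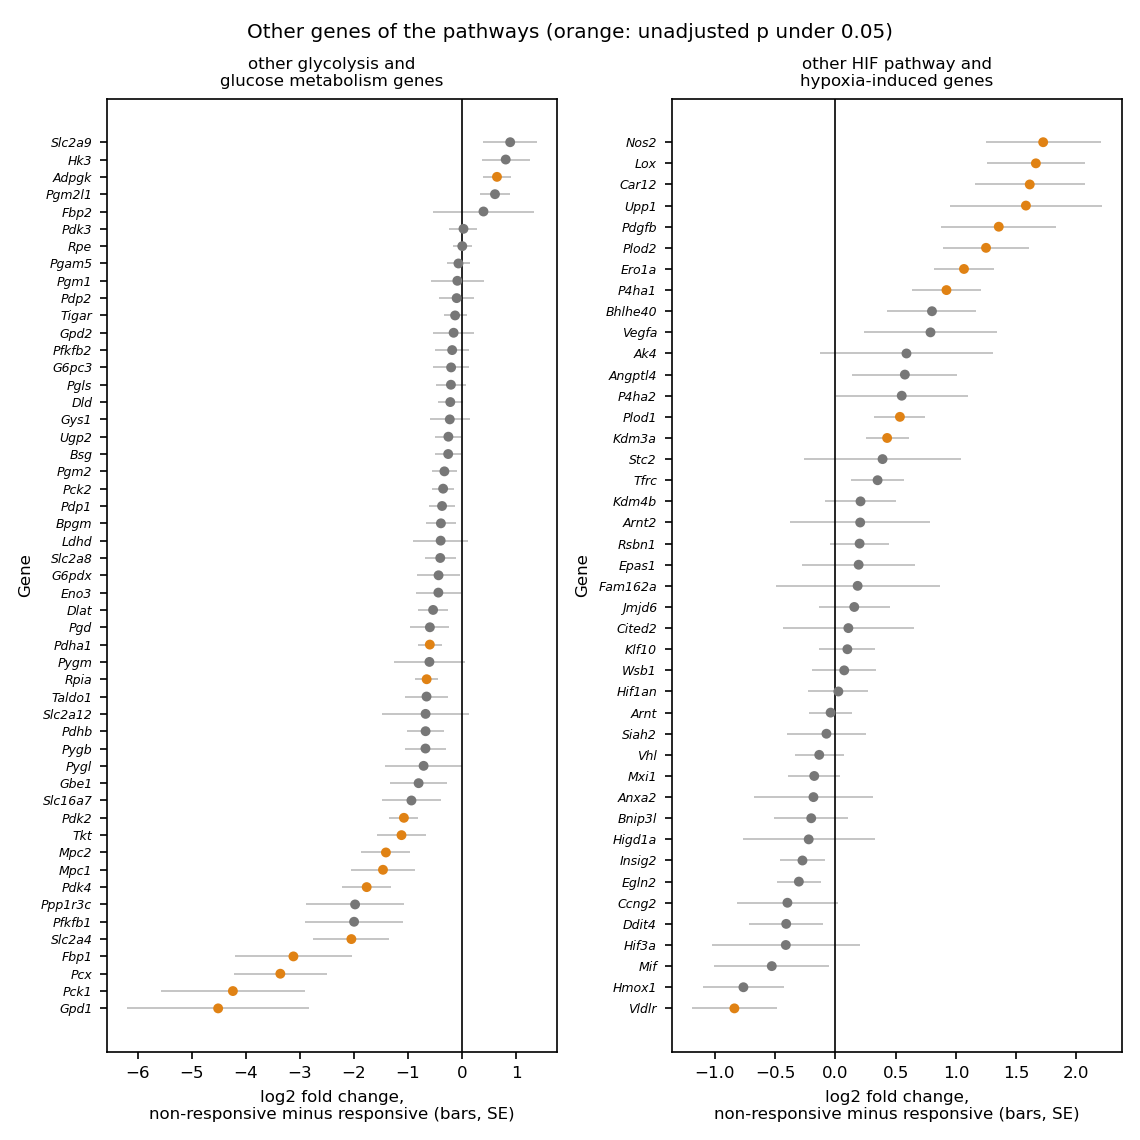
Log2 fold change (x axis, non-responsive minus responsive; bars, standard errors) of the 51 tested genes of the list of other glucose metabolism genes and the 42 tested genes of the list of other hypoxia genes. Points in orange have an unadjusted p under 0.05; 44 of 51 glucose metabolism genes lie below 0, and 27 of 42 hypoxia genes lie above it.

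Reads shared with related sequences touch a few members. The estimated counts of Gapdh, Eno1, Pfkp and Slc16a3 were not whole numbers, which is a mark of reads divided between genes, and their values carry that uncertainty. Hif1a, Car9, Ndrg1, Adm, Bnip3, Slc2a1, Hk1, Hk2, Pfkfb3 and Gpi1 overlap annotated non-coding genes on the opposite strand. Pfkm, Pfkp, Aldoa, Tpi1, Gapdh and Ankrd37 overlap coding genes on the opposite strand (Senp1, Pitrm1, Tlcd3b, Spsb2, Iffo1, and Ufsp2 with Lrp2bp). Pfkm also overlaps a non-coding gene on its own strand, and Hif1a a coding gene on its own strand. The strand setting of the counting was not given in the sources used here, so reads of a gene and of its partner on the other strand cannot be told apart.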

How the data were processed

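RNA of 6 tumours (3 non-responsive, 3 responsive) was extracted with TRIZOL, and an Illumina TruSeq kit was used for the libraries, per the labels' protocols. The genome build was mm10, per the submitters' processing notes. The aligner, the counter, the annotation and the strand setting were not given in the sources used here. For each gene and tumour the authors deposited an estimated count (expected count) and FPKM, per the file headers. The counts carry no normalisation. They were rounded, since 8.19 to 9.99% of them per tumour were not whole. FPKM served for isoenzyme ratios and 1 alternative.

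The groups were compared on counts by edgeR 4.0.16 under R 4.3.3 (TMM, default expression filter, robust quasi-likelihood test, Benjamini-Hochberg over 14505 genes, threshold 5%). The standard error of a log2 fold change was derived from its F statistic. CPM is per library total times the TMM factor. List scores are means of log2 CPM (prior count 2) centred per gene. Gene coordinates are those of GENCODE mouse release M21 (GRCm38), counted from 1. Scripts were tested on simulated data. Alternatives were other scalings, no or stricter filters, DESeq2 1.42.0 and limma 3.58.1 (voom with a quality weight per tumour, or log2(FPKM + 1)). Further alternatives were the replicate number as a block, other pseudocounts, and leaving out each tumour. DESeq2 fits without each tumour, and such edgeR counts for the pathway lists, were added after seeing the data.

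The 32 genes and all lists were chosen with earlier results of these data known. Values in every tumour are given for 17 preset members, for members with an unadjusted p under 0.05 or without overlap, and for the 5 of largest change. Of the 2 pathway lists, up to 4 genes per direction of smallest p under 0.05 are named. 1 gene of the hypoxia list is not reported here and was left out of its counts. Summed marker lists not described in the report ran, over the 6 tumours, from 64.6 to 997 CPM for B and plasma cells (6 of 6 above 0), and 22.0 to 37.3 for neurons and glia (2 of 8 above 0). The count precision covers sampling of reads only.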

Additional observations from a re-analysis of the deposited data

How the results depend on the processing

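With 3 tumours per group and no gene called by edgeR, the counts of calls depended on the tool and on single tumours. Under DESeq2 447 genes were called in the whole table and 2 of the 32. In DESeq2 fits that left out 1 tumour, chosen after seeing the data, the whole table gave 1966, 428 and 169 calls (non-responsive replicates 1, 2 and 3 left out) and 439, 293 and 192 (responsive replicates 1, 2 and 3 left out), with 3, 2 and 0 and then 1, 2 and 0 of the 32. At an unadjusted p under 0.05 there were 3 to 7 of the 32 in edgeR fits and 3 to 8 in DESeq2 fits without 1 tumour, with 7 in edgeR without non-responsive replicate 2. The whole table gave 1825 genes at that threshold, 3357 with voom and 1144 to 3469 in edgeR fits that left out 1 tumour, the highest without non-responsive replicate 1. The log2 fold change changed sign for Slc2a1 without non-responsive replicate 1 (-0.015 in edgeR, where fits that left out 1 tumour ran to 0.59, and -0.021 in DESeq2) and for Pfkfb3 without responsive replicate 1 (0.20 in edgeR, where such fits ran down to -0.81, and 0.21 in DESeq2).

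Differences in log2 isoenzyme ratio changed sign for Slc2a1 over Slc2a3 with a pseudocount of 1 (0.12) and between fits without 1 tumour (-0.65 to 0.42), for Pfkp over Pfkl with CPM (0.074) and without 1 tumour (-0.43 to 0.083), and, without 1 tumour, for Pfkfb3 over Pfkfb4 (-0.55 to 0.055) and Eno1 over Eno2 (-0.23 to 0.95). The median of the 32 genes ran from -0.24 to 0.35 in edgeR fits without 1 tumour. With the replicate block 3 of the 32 genes (Egln1, Ldhb, Pfkm) had an unadjusted p under 0.05 and 1602 in the whole table. Same-numbered tumours had correlations of deviations of -0.11, -0.087 and -0.024 over 14505 genes, and differently numbered ones from -0.12 to 0.19. With 3 tumours per group these values cannot settle whether the numbers pair tumours, and the labels do not say. The cause of these changes was not tested.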

Other observations

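Other genes of both lists, chosen after their values were seen, gave further detail. The pyruvate carrier genes Mpc1 and Mpc2 had log2 fold changes of -1.46 ± 0.59 and -1.41 ± 0.45 (SE), and Pdha1, a subunit of pyruvate dehydrogenase, one of -0.60 ± 0.22 (SE). Without responsive replicate 1, the tumour rich in adipocyte markers, Mpc1 was at -0.39 and Mpc2 at -0.69. The collagen-modifying hydroxylases P4ha1 and Plod2 had log2 fold changes of 0.92 ± 0.29 and 1.25 ± 0.36 (SE).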
